A study of Homo sapiens with 4 samples.

Results

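Chromosome 8 before 140 Mb carried 1287 intervals called with an anti-GATA4 antibody, of 21308 in the deposited list and of 21139 on the autosomes and chromosome X (6.09%). They are the listed intervals on chromosome 8 that start below 140 Mb in build hg19. They were chosen by position, and the limit was set with earlier results of these data known. The first began at 115822 and the last ended at 139997702. By arm, 236 started before 43 Mb (the short arm), 995 at or beyond 47 Mb (the long arm, here up to 140 Mb) and 56 between these limits, on either side of the centromere.

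The list was made from 4 CUT&RUN libraries of PaTu8988S, an established line of human pancreatic adenocarcinoma cells. CUT&RUN maps a protein on DNA by tethering a nuclease to an antibody in permeabilised cells and sequencing the fragments that are cut free. Each library came from 500000 cells and used 10 ug of the anti-GATA4 antibody MAB2606. The labels name no treatment and no control, and all 4 formed 1 group. The list gives the intervals common to them, with a start and an end but no score, count or library. The spread between libraries therefore could not be measured, and no comparison below carries a test or a p value. Errors are quartiles or the SD of windows along the chromosome.

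GATA4 is a zinc-finger transcription factor that binds the DNA letters GATA and helps to open chromatin in endoderm, from which the pancreas forms, and in the heart. In pancreatic ductal adenocarcinoma GATA4 and its paralogue GATA6 are associated with the classical, epithelial expression programme, and the series asks about the loss of both. Chromosome 8 carries GATA4 itself and FGFR1, a growth factor receptor gene, on its short arm, and MYC, the gene of a transcription factor that drives growth, on its long arm. As an annotation of build hg19 was not used, no interval below is assigned to a gene, and copy number, mappability and read depth along the chromosome were not analysed here.

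The short arm was the sparser one on average, but the difference was not uniform. It held 5.49 intervals per Mb, against 10.7 per Mb on the long arm, a ratio of 0.513. A 1 Mb window, counted by interval starts, held 5.49 ± 9.37 intervals on the short arm (SD of 43 windows) and 10.7 ± 9.40 on the long arm (SD of 93 windows), so the difference in means was smaller than the spread between windows. The median window held 2 intervals on the short arm (quartiles 1 and 6) and 7 on the long arm (quartiles 4 and 15), a ratio of 0.286. Empty windows made up 10 of 43 on the short arm (23.3%) and 2 of 93 on the long arm (2.15%). Intervals covered 0.357% of the short arm and 0.666% of the long arm. The ratio of the arms depended on where each was ended. It was 0.245 when the short arm was taken only up to 37 Mb, and 0.323 when the long arm was followed to the end of the chromosome.

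The short arm itself changed level at 37 Mb. Its first 37 Mb held 97 intervals (2.62 per Mb). The 6 Mb from there to 43 Mb held 139 (23.2 per Mb), which is 58.9% of the arm's intervals in 14.0% of its length. The part beyond 37 Mb was thus 8.84 times as dense as the part before it and 2.17 times as dense as the long arm.

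**Figure D1:**
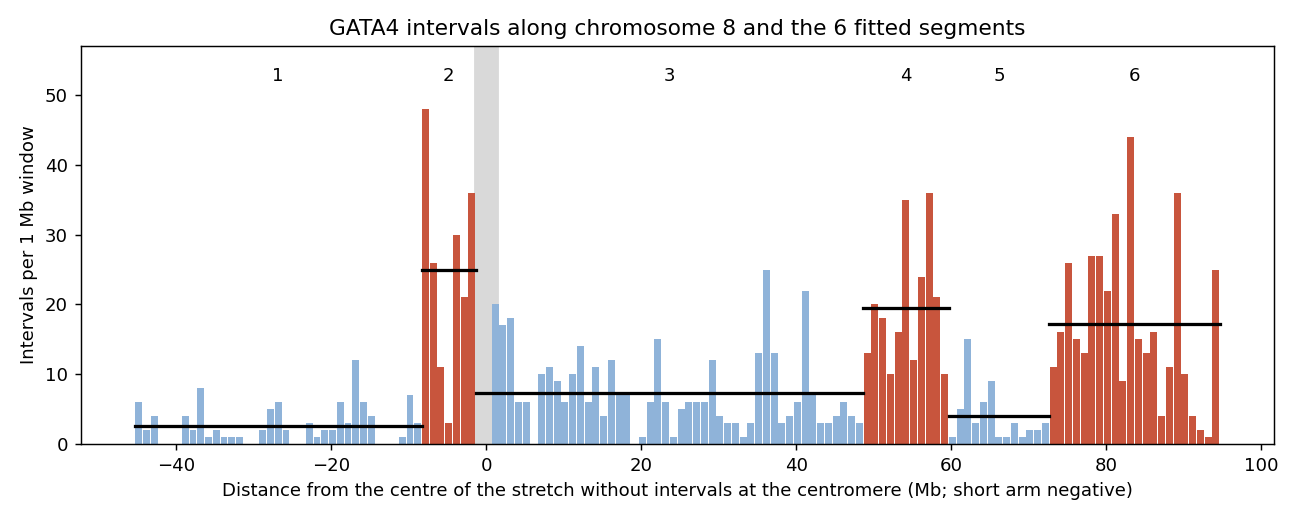
Intervals per 1 Mb window (bars) against the distance in Mb from the centre of the 3.02 Mb stretch without intervals at the centromere (grey), with the short arm at negative distances. Black lines give the mean of each of the 6 fitted segments, numbered from the short-arm end. Segments 2, 4 and 6 (red) average 25, 19.5 and 17.3 intervals per Mb, and segments 1, 3 and 5 (blue) 2.62, 7.36 and 4.00.

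Along the whole stretch a step-wise fit to the 140 windows placed 5 steps, which part it into 6 segments of alternating level. The fit minimised squared error on log2(count + 1), with a penalty for each step and at least 3 windows in a segment. Segment 1, up to 37 Mb, averaged 2.62 intervals per Mb (97 intervals), and segment 2, from 37 to 44 Mb, 25 per Mb (175). Segment 3, from 44 to 94 Mb, averaged 7.36 per Mb (368), and segment 4, from 94 to 105 Mb, 19.5 per Mb (215). Segment 5, from 105 to 118 Mb, averaged 4.00 per Mb (52), and segment 6, from 118 to 140 Mb, 17.3 per Mb (380). Density in the densest segment was 9.54 times that in the sparsest. Segments 2, 4 and 6 together held 770 intervals, 59.8% of the members in 28.6% of the length. As the segments were drawn from these counts, their levels are a description.

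The number of steps depended on the fit. All 5 returned within 2 Mb in 4 of 7 alternatives. In the other 3 (windows of 2 Mb, a doubled penalty, and intervals at or above the list's median width of 586 bp) a single step was left, at 34 or 35 Mb.

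The step at 37 Mb was the largest, with a density ratio of 9.54 beyond it over before it. The window beyond held 48 intervals and the window before held 3. In 3 Mb on each side the counts were 85 beyond and 11 before. No long empty stretch marks this step: the first interval beyond it ran from 37022381 to 37022715 (334 bp), and the last before it from 36985284 to 36985469 (185 bp), 36.9 kb apart. Within segment 2 the windows ranged from 3 to 48 intervals with a median of 26. The level dipped to 3 between 40 and 41 Mb and was back at 30 in the next window.

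The step at 44 Mb coincides with the centromere. The last interval before it ran from 43826131 to 43830376, the next one began at 46848883, and the 3.02 Mb between them held none. Beyond 44 Mb segment 3 averaged 7.36 per Mb, 0.294 times the level before. Its empty start is part of that average: its long-arm portion from 47 to 94 Mb held 348 intervals (7.40 per Mb). Segment 2 also ends in a tight cluster of 28 intervals at the edge of this stretch, and without it segment 2 held 147 intervals (21 per Mb). Mappability next to the centromere was not tested.

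The 3 remaining steps lie on the long arm. At 94 Mb the density beyond was 2.66 times that before, with 51 intervals in the 3 Mb beyond and 13 in the 3 Mb before. The interval beyond the step ran from 94253610 to 94254817 and the one before it from 93977443 to 93978717, with 275 kb between them. At 105 Mb the density beyond was 0.205 times that before, with 21 intervals in the 3 Mb beyond and 67 in the 3 Mb before. That step fell in a gap of 415 kb between the interval beginning at 105379823 and the one ending at 104964345. At 118 Mb the density beyond was 4.32 times that before, with 53 intervals in the 3 Mb beyond and 7 in the 3 Mb before. Its bordering intervals began at 118104817 and ended at 117779356, 325 kb apart.

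**Figure D2:**
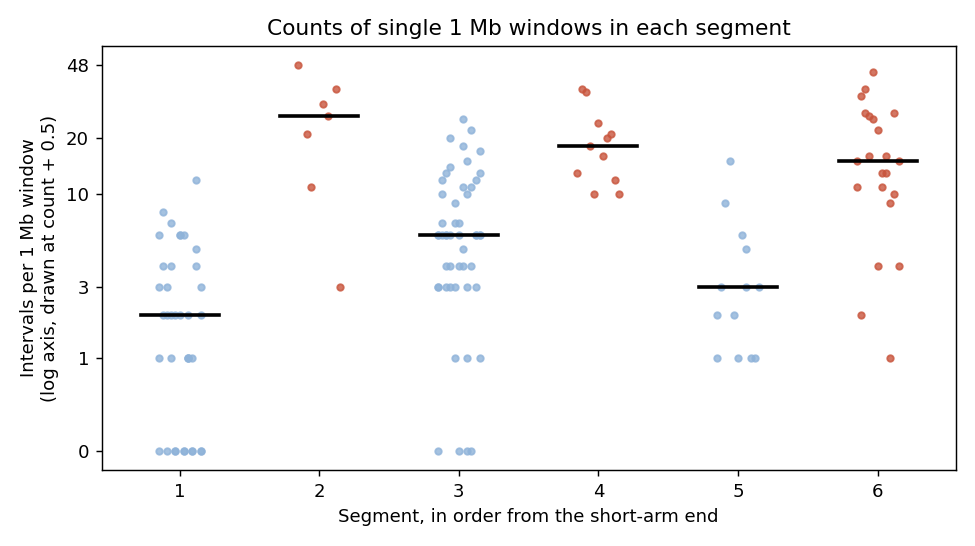
Intervals in each 1 Mb window (points, log axis drawn at count + 0.5) by segment, with the median as a black line. Medians are 2, 26, 6, 18, 3 and 15 from segment 1 to 6, and the ranges of neighbouring segments overlap.

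Windows of neighbouring segments overlapped in count. Segment 1 had a median of 2 intervals per window and a highest window of 12, while the lowest of the 7 windows of segment 2 held 3. Segment 4 ranged from 10 to 36 over 11 windows (median 18), and segment 5 from 1 to 15 over 13 windows (median 3). Segment 3 ranged from 0 to 25 over 50 windows (median 6), and segment 6 from 1 to 44 over 22 windows (median 15). The SD of windows was 15.1 in segment 2, 9.10 in segment 4 and 11.5 in segment 6. Segment 6 was uneven along its length. Its part from 118 to 136 Mb held 348 intervals (19.3 per Mb), and its last 4 Mb held 32, a division that the fit made only with windows of 500 kb. Of those 32, 25 lay between 139 and 140 Mb and 7 in the 3 Mb before. Beyond the members' limit the next windows held 43 and 51 intervals, at the start of a terminal stretch with 110.0 per Mb.

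The sparse segments held smaller rises. In segment 1 the fullest window, from 28 to 29 Mb, held 12 intervals, and the 5 Mb from 25 to 30 Mb held 29, against 15 in the 7 Mb from 30 to 37 Mb. In segment 3 the windows beginning at 81 and 86 Mb held 25 and 22. The 5 Mb from 75 to 80 Mb held 14, and the 8 Mb from 80 to 88 Mb held 93 (11.6 per Mb). These subdivisions were chosen after the counts were seen.

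The fullest windows lay in the dense segments. The window beginning at 37 Mb held 48 intervals, the one at 128 Mb held 44, and those at 43, 102 and 134 Mb held 36 each. Together these 5 held 15.5% of the members, and the 24 fullest windows held 51.0%. The median width in them was 731.5 bp from 37 to 38 Mb and 438 bp from 43 to 44 Mb, the extremes of the 5. Windows with no interval numbered 14, of which 10 lay in segment 1 and 4 in segment 3. The 5 first by position were the windows beginning at 3, 4, 5, 14 and 15 Mb.

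Of the 5 longest empty stretches, 4 were on the short arm before 37 Mb. The longest, 4.09 Mb, ran from 2329547 to 6417139, and the next, 3.97 Mb, from 30400172 to 34371859. After the 3.02 Mb at the centromere came 2.94 Mb from 13134531 to 16070864 and 2.91 Mb from 19316140 to 22222996. The longest on the long arm was 1.92 Mb, from 63952306 to 65877246. Read depth being unknown, these stretches say only that the list has no common interval in them.

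Intervals were of similar width on both arms. The median was 587 bp on the short arm (quartiles 429 and 777 bp) and 545 bp on the long arm (quartiles 409 and 738.5 bp), a ratio of 1.08 that is small beside the quartiles. The ratio fell below 1 when only intervals without a neighbour within 12500 bp were taken (0.970) and when the short arm was ended at 37 Mb (0.905). On the short arm the median width was 638 bp beyond 37 Mb and 493 bp before it, 1.29 times as wide. Over the 6 segments the medians ran 493, 598, 549, 567, 456.5 and 545.5 bp, so the median of each dense segment was above that of the sparse one before it. Over the 28 windows of 5 Mb, which share one list and one set of libraries, the relation of count to median width had a Pearson r of 0.41 (log2 values) and a Spearman rho of 0.33, given as a description. The 56 intervals between the arm limits were narrower than those of either arm, with a median of 438 bp (quartiles 291 and 589.5 bp), and 26.8% of them were under 300 bp, against 8.31% of all members.

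**Figure D3:**
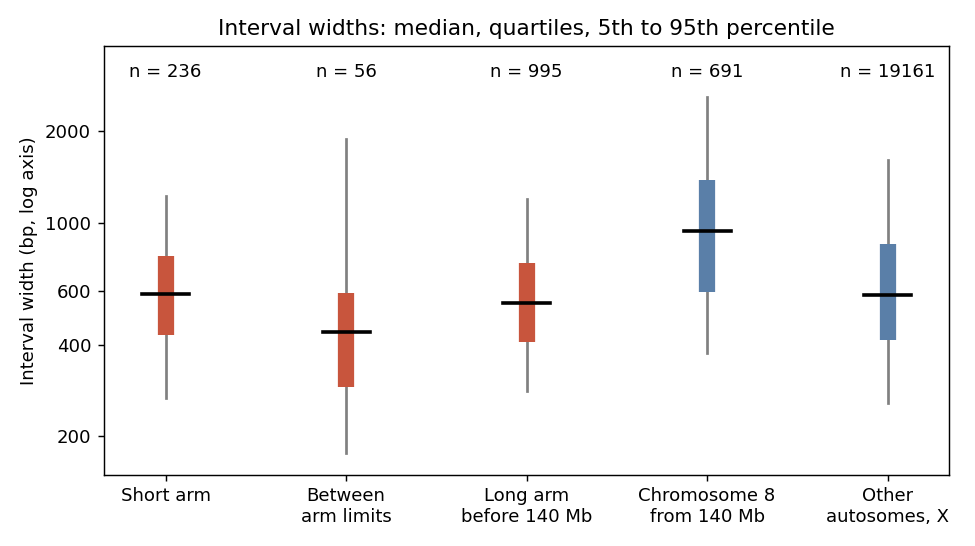
Interval widths in bp on a log axis, with the median (black line), the quartiles (box) and the 5th to 95th percentile (thin line), for 3 portions of chromosome 8 before 140 Mb, for chromosome 8 from 140 Mb and for the other autosomes and X. The medians are 587, 438, 545, 940 and 583 bp from left to right.

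Wide intervals were few. Only 7 of 1287 members were 2 kb or wider (0.544%), against 532 of the 19161 intervals of the other autosomes and X (2.78%) and 77 of the 691 beyond 140 Mb (11.1%). The pooled share is carried by a few chromosomes, such as chromosome 18 with 124 wide intervals (11.2%). On chromosomes 7, 11, 13 and 14 it was 0.962%, 0.735%, 0.592% and 0.741%. The median width of the members was 551 bp, against 583 bp on the other autosomes and X, while the 95th percentile was 1205 bp in members and 1610 bp there. The widest member ran from 86778983 to 86789660 (10677 bp), on the long arm, and ranked 23 in the list. It belongs to a group of 6 intervals in 31.5 kb, 49.3% covered, whose other widths were 146 to 1431 bp. The next widest, of 8809 bp from 46848883 and of 4245 bp from 43826131, border the empty stretch at the centromere on its far and near side. One of 3882 bp began at 43822223 and lies just before the one of 4245 bp. The next, of 3728 bp, began at 37552469 in the fullest window. The remaining 5 of the 10 widest were 1761 to 2368 bp wide and all on the long arm. Those beginning at 124552109, 123964340 and 128750127 lie in segment 6, the one beginning at 101918812 in segment 4 and the one beginning at 81398429 in segment 3.

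The spacing of the members was wider than that of the pooled intervals of the other autosomes and X, but near that of chromosomes of like density. The median distance between neighbours was 35.9 kb (quartiles 9.14 and 94.1 kb), against 15.7 kb on the other autosomes and X (quartiles 2.27 and 94.6 kb). On the short arm 33.2% of distances were 12500 bp or shorter and on the long arm 25.6%, against 47.2% elsewhere. Distances of 100 bp or less made up 1.79% in members and 4.78% elsewhere. Intervals with no neighbour within 12500 bp were 53.1% of the members and 40.7% of the others. By chromosome both the median distance and this share ranked 8 of 23. Chromosomes 7, 11, 13 and 14 had 51.8%, 47.9%, 50.6% and 51.7% without a neighbour and median distances of 31.3, 27.5, 31.2 and 33.5 kb. Within the members this share was 43.8% in segments 2, 4 and 6 and 67.1% in segments 1, 3 and 5.

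**Figure D4:**
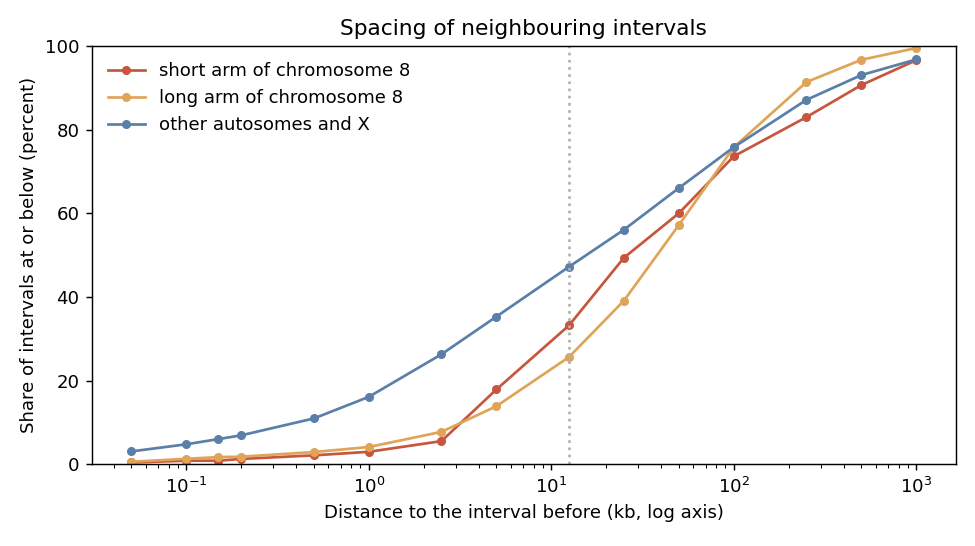
Cumulative share of intervals (percent) by distance to the interval before (kb, log axis) for the short arm and long arm of chromosome 8 before 140 Mb and for the other autosomes and X. At the dotted line (12500 bp) the shares are 33.2%, 25.6% and 47.2%.

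Clusters, taken as 3 or more intervals linked across distances of at most 12500 bp, numbered 81 and held 329 members (25.6%), against 44.8% of the intervals of the other autosomes and X. There were 17 on the short arm, 3 between the arm limits and 61 on the long arm. Of the 17 on the short arm, 13 lay beyond 37 Mb. The count changed with the linking distance, to 40 at 5 kb and 123 at 25 kb.

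Both clusters of 20 or more intervals flank the centromeric stretch. The larger ran from 43760272 to 43830376 with 28 intervals, 25.7% covered, and the other from 46848883 to 46908127 with 20 intervals, 28.9% covered. Their median widths were 350 and 449 bp. Away from the centromere the largest clusters were small. The next held 9 intervals from 41526519 to 41583492, with widths of 290 to 1074 bp. Clusters of 7 ran from 37447884 to 37483233 and from 134261473 to 134304851, with median widths of 698 and 716 bp. The remaining 5 of the 10 largest held 5 or 6 intervals and began at 37308451, 43121419, 86761376, 99948483 and 128852007.

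Set beside the other chromosomes, and with chromosome 8 ended at 140 Mb, the members combined a moderate mean with a high typical level. From their first to last interval they held 9.20 per Mb, which ranks 8 of 23 when chromosome 8 before 140 Mb is counted as 1 of 23 chromosomes, and the other 22 had a median of 7.12 per Mb (range 1.70 to 29.3). The median 1 Mb window held 6 intervals, which ranks 3 of 23, against a median of 2 over the other 22. Windows with at least 6 intervals made up 53.6% of the members' windows and 26.2% of the 2899 windows elsewhere. As 6 is the members' own median, their share follows from that choice. Empty windows made up 10.0% and 24.9%. Those before the first interval of a chromosome are included, and chromosome 13 had 116 windows for a span of 96.0 Mb. This raises the empty share elsewhere and can lower the medians there. Values without such windows were not computed. The share of intervals in clusters of 3 or more ranked 20 of 23 and the share 2 kb or wider 21 of 23. All these ranks, those of density and of the median window too, rest on ending chromosome 8 at 140 Mb while the other chromosomes keep their dense blocks. With its last stretch included, chromosome 8 had 47.7% of its intervals in clusters (rank 7) and 4.25% at 2 kb or wider (rank 5). That stretch held 691 intervals (110.0 per Mb), so including it would raise the mean density. The rank of that density was not computed. Without clusters of 20 or more intervals the density ranked 5 of 23.

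**Figure D5:**
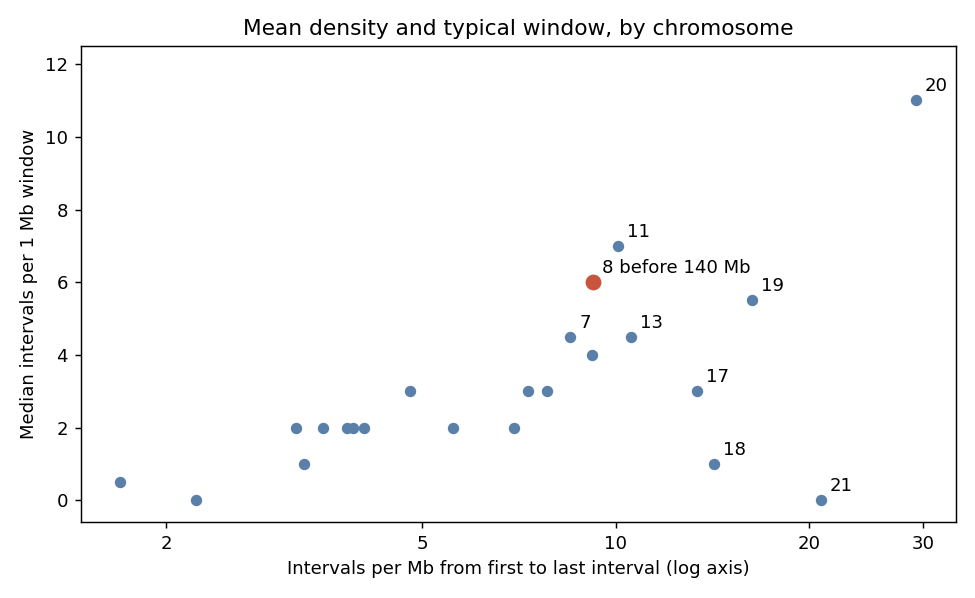
Median intervals per 1 Mb window against intervals per Mb from the first to the last interval (log axis), 1 point per chromosome, with chromosome 8 before 140 Mb in red. It lies at 9.20 per Mb and a median of 6, with only chromosomes 11 and 20 at a higher median.

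Chromosomes 7, 14, 11 and 13 had a similar mean density, of 8.50, 9.18, 10.1 and 10.5 per Mb. Of these 4, chromosome 11 had the nearest median window and the same number of steps as the members, with a median of 7 intervals per window, 13.3% empty windows, 31.6% of intervals in clusters and 5 steps by the same fit. Chromosome 7 had a median of 4.5, 8.13% empty windows, 29.2% in clusters and 0 steps. Chromosome 14 had a median of 4, 31.5% empty windows, 27.8% in clusters and 8 steps. Chromosome 13 had a median of 4.5, 21.6% empty windows, 27.6% in clusters and 10 steps. Empty windows before the first interval enter the medians, empty shares and steps of chromosomes 13 and 14. Their 116 and 108 windows stand against spans of 96.0 and 88.3 Mb from first to last interval. Over the other 22 chromosomes the fit gave a median of 3 steps (range 0 to 10), so 5 steps is not unusual in this list. The members' count comes from 140 windows that stop before the dense end of chromosome 8. The other chromosomes were fitted whole, over 48 to 250 windows. Segment 2 was denser than 21 of the 22 other chromosomes as a whole, segments 4 and 6 than 20, and segment 1 was sparser than 20 of them. These ranks set chosen stretches of 1 chromosome beside whole chromosomes.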

How the data were processed

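The deposited file lists intervals as a chromosome, a start and an end in bp, with no score or count. Per the submitters' processing notes, SEACR (a CUT&RUN peak caller) and HOMER (a peak package) were used with build hg19; versions, parameters and the overlap rule were not given in the sources used here. The 4 libraries, of 1 group, are pooled in the list, and depth per library is unknown. Widths are end minus start. Intervals were counted in the window of their start in Python 3.11.15 (pandas 2.3.3 and numpy 2.4.6; scipy 1.17.1 for binomial limits, matplotlib 3.10.9 for figures). The step fit used log2(count + 1), dynamic programming and a penalty of 3 times the variance (from first differences) times the natural log of the number of windows. Named were the 10 widest intervals, the 10 largest clusters, the 5 longest empty stretches, the 5 fullest and 5 emptiest windows and the intervals beside each step. The members, lists and limits were chosen with earlier results of these data known. Sequences and gene assignments need hg19 and were not used.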

Additional observations from a re-analysis of the deposited data

How the results depend on the processing

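Of 33 recomputed values, 21 kept their direction and stayed within a set tolerance, 10 moved beyond it and 2 reversed. The tolerance was the 95% binomial interval for the arm ratios of density (0.443 to 0.592) and median width (0.979 to 1.19). It was 0.2 for the rank correlation and 1.5 times for all others. The binomial interval treats intervals as independent, although they cluster, so it serves only as a set tolerance and not as an error. The cause of these changes was not tested, except where fewer intervals or coarser windows entered by construction. The density ratio of short arm over long arm, 0.513, was 0.286 from medians of 1 Mb windows, 0.654 without empty windows, and, in alternatives chosen after seeing the data, 0.245 with the short arm ended at the step at 37 Mb and 0.323 with the long arm followed to the chromosome's end. Merging intervals within 1 kb gave 0.519. The width ratio, 1.08, reversed to 0.970 for intervals without a neighbour and to 0.905 with the short arm ended at 37 Mb. The number of steps, 5, was 1 with 2 Mb windows, 1 with a penalty factor of 6 and 1 for intervals at or above the median width. The density over the median of the other chromosomes, 1.29, was 3.00 from medians of 1 Mb windows, which include empty windows before a chromosome's first interval. Clusters, 81, numbered 40 with 5 kb linking and 123 with 25 kb. No library could be left out of the pooled list. No paired analysis was possible because the list carries no values per library.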
